A study of Rattus norvegicus with 14 samples.

Results

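The transcripts described here are those of Cyp2b1, Cyp2b2, Alas1, Por and Ephx1, a set of 5 rat liver genes known for their response to drugs such as phenobarbital. Their members on the array were found by gene symbol: a probe set, the group of short oligonucleotides that reads 1 transcript, belonged to the set if its annotation named 1 of the 5 genes, alone or beside another gene. This gave 12 of the 8740 probe sets other than controls, and the 12 were among the 5244 bright enough to be tested. The genes were chosen by their intensity differences between the diets and by their pattern among deficient livers, so those values are given as a description with no test.

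Liver RNA came from male rats aged 74 days after 53 days on a vitamin A-deficient diet, against a vitamin A-sufficient diet, and was measured on 1-colour Affymetrix rat arrays. Each diet had 7 arrays: 3, numbered 1, 2 and 4, labelled from some 2 µg of total RNA, and 4, numbered 1 to 4, labelled from some 10 µg. The mean of the arrays that share a diet and a number is treated as 1 liver (n = 4 livers per diet), although the labels do not say which arrays share an animal, so every spread is that between these averaged values. Levels are log2 of the scaled intensity plus 16, and the 10 µg array alone stands for liver 3 of each diet.

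In rat liver, CYP2B1 and CYP2B2 are microsomal cytochromes P450 that oxidize barbiturates, steroids and many other lipophilic compounds. Their genes are the classic targets of phenobarbital, which acts through the constitutive androstane receptor (Nr1i3), a nuclear receptor that binds DNA together with the retinoid X receptor. A P450 needs heme, whose synthesis begins with the housekeeping 5-aminolevulinate synthase encoded by Alas1, and it needs electrons, which the P450 oxidoreductase encoded by Por passes on from NADPH. Ephx1 encodes microsomal epoxide hydrolase, which opens the epoxides that P450s form.

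Cyp2b1 and Cyp2b2 lie near each other on chromosome 1 and are close copies, which decides how their probe sets can be read. Of the 6 Cyp2b probe sets, 2 were annotated to Cyp2b2 alone, 3 to both Cyp2b1 and Cyp2b2, and 1 to Cyp2b15 and Cyp2b2, and 0 were annotated to Cyp2b1 alone. The suffixes of their names, s and f, mark probes shared with related transcripts, so the 6 are not separate measurements of separate genes. The promoter windows of the 2 genes show the likeness. RefSeq (GRCr8) places the Cyp2b1 window at chr1:90645869-90646168 and the Cyp2b2 window at chr1:90722031-90722330, both on the plus strand, each with 250 bases before and 50 after the start. The best local alignment of the windows ran over 283 columns, of which 275 (97.2%) were identical and 8 were mismatches, with 0 gaps, whereas the window of Cyp2b15 aligned with that of Cyp2b2 over 155 columns with 78.1% identity. The capitals mark the letters TTGCNNAA (N is any base), a core of the site bound by C/EBP factors, searched on both strands.
Cyp2b1: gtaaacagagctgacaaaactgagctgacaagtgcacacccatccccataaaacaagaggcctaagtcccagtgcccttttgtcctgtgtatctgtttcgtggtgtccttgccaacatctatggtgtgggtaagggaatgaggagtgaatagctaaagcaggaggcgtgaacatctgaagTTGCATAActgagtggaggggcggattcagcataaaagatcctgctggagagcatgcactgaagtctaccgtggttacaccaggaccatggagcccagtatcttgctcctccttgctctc
Cyp2b2: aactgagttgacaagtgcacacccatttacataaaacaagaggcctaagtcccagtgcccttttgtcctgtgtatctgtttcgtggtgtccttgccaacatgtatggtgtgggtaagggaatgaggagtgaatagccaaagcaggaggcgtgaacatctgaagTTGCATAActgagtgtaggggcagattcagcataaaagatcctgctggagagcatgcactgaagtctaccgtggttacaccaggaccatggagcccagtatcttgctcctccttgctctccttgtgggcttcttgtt

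These letters were found once in each of the 2 windows, once in the Cyp2b15 window, and in 10.6% of the 33469 promoter windows of the RefSeq table. They were not in the windows of Alas1, Por or Ephx1. The half-site AGGTCA, the core letters read by retinoid X receptor and its partners, was in 16.2% of all windows on either strand. It was not in the windows of Cyp2b1, Cyp2b2 or Alas1. It was found once in the Cyp2b15 window, once in the Por window and 2 times in 1 of the 2 windows of Ephx1. These matches describe letters in short windows. The known phenobarbital-responsive enhancer of the Cyp2b genes lies further upstream and was not examined.

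The level of Cyp2b2 was lower in deficient than in sufficient livers and varied widely among the deficient ones. By the brightest probe set annotated to Cyp2b2 alone (K01721mRNA_s_at), deficient livers 1 to 4 had levels of 9.04, 12.35, 11.69 and 10.02, against 12.93, 13.15, 13.20 and 12.03 in sufficient livers 1 to 4. Deficient livers 1 and 4 lay far below every sufficient liver, deficient liver 3 lay just below the lowest of them, and deficient liver 2 lay above sufficient liver 4, so the groups overlapped by this 1 pair. The mean level was 10.78 ± 1.52 in deficient and 12.83 ± 0.54 in sufficient livers (SD, n = 4 each), a difference of -2.05 on the log2 scale (SE 0.60), or 4.14-fold lower. In scaled intensity the 10 µg arrays of deficient livers 1 to 4 read 516, 4855, 3286 and 1078, against 7736, 9271, 9364 and 4139 in sufficient livers. The mean fold therefore joins 2 deficient livers with signals close to those of sufficient liver 4 and 2 with signals several times lower.

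The other 5 Cyp2b probe sets were lower on average as well, by 1.16 to 2.06 on the log2 scale. J00728cds_f_at, the other probe set of Cyp2b2 alone, averaged 10.75 ± 1.12 in deficient and 12.52 ± 0.44 in sufficient livers, a difference of -1.77 (SE 0.45). The 3 probe sets shared with Cyp2b1 differed by -1.71 (K00996mRNA_s_at, SE 0.44), -1.18 (L00320cds_f_at, SE 0.45) and -1.16 (M11251cds_f_at, SE 0.37), and the one shared with Cyp2b15 (M13234cds_f_at) by -2.06 (SE 0.60). In 4 of these 5 the deficient livers stood in the same order, 1 lowest, then 4, 3 and 2, while by M13234cds_f_at liver 4, at 8.62, was lower than liver 1, at 9.44. Without deficient liver 1 the difference was -1.47 by K01721mRNA_s_at and -0.72 by L00320cds_f_at. The plot of every array shows deficient livers 1, 2 and 4 in the same order by either RNA amount, while liver 3 had no 2 µg array.

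**Figure D1:**
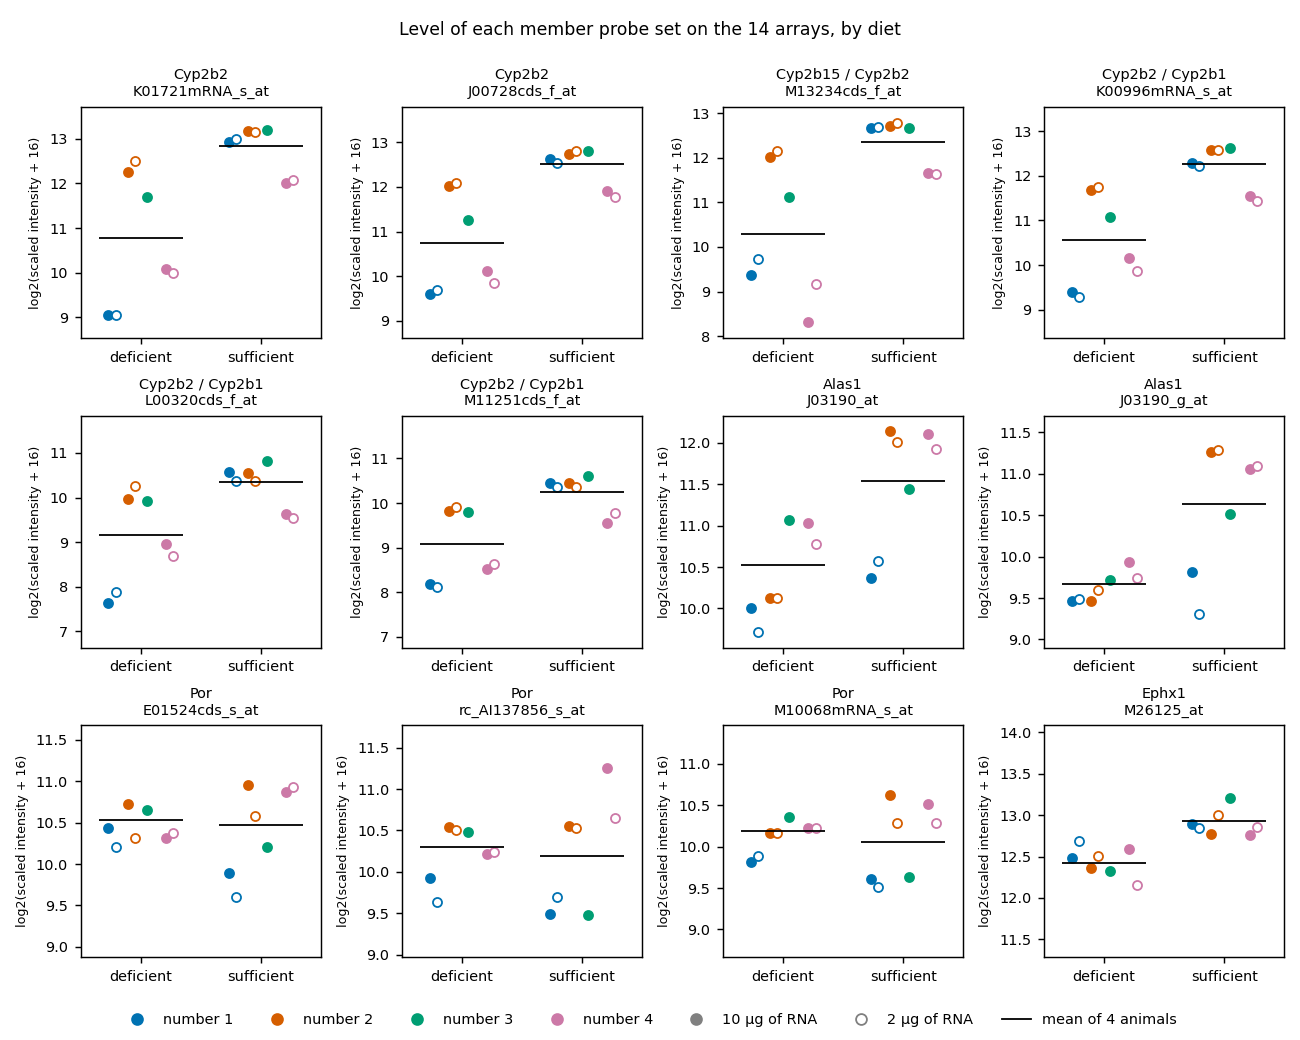
Level of the 12 member probe sets, as log2 of the scaled intensity plus 16, on the vertical axes (which differ in range), with deficient arrays left of sufficient arrays. Filled points are 10 µg arrays, open points 2 µg arrays, colours the numbers 1 to 4 and bars the mean of 4 livers. By K01721mRNA_s_at the deficient livers spread from 9.04 to 12.35 and the sufficient ones from 12.03 to 13.20.

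The spread of Cyp2b2 among deficient livers was among the widest on the array. Its SD of 1.52 ranked 6 among the 5244 tested probe sets, where the median SD over deficient livers was 0.217 and that over sufficient livers 0.222. The pattern among deficient livers helped choose the genes, so this rank is a description. Its SD of 0.54 over sufficient livers was wide too, reached by 7.55% of tested probe sets. The deficient SD was 2.79 times that of the sufficient livers by K01721mRNA_s_at and 2.04 to 2.79 times by the other Cyp2b probe sets. Arrays of the same liver differed far less: between the 2 µg and 10 µg arrays of 1 diet and number the largest gap was 0.25 by K01721mRNA_s_at, at a range of 3.32 among deficient livers. The largest such gap was 0.84 by M13234cds_f_at and at most 0.30 by the other Cyp2b probe sets.

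Alas1 was lower on average in deficient livers, with a different distribution of livers. By J03190_at, deficient livers 1 to 4 had levels of 9.91, 10.18, 11.07 and 10.96, against 10.52, 12.13, 11.44 and 12.07 in sufficient livers 1 to 4. Every deficient liver lay below sufficient livers 2, 3 and 4, whereas sufficient liver 1 lay among the deficient livers. The means were 10.53 ± 0.57 in deficient and 11.54 ± 0.75 in sufficient livers, a difference of -1.01 (SE 0.36), or 2.02-fold lower. By the second probe set of the same transcript, J03190_g_at, the deficient livers lay close together, from 9.52 to 9.88, and the sufficient livers from 9.60 to 11.31 (difference -0.96, SE 0.31). By J03190_g_at the wide spread was on the sufficient side: the SD was 0.16 in deficient and 0.77 in sufficient livers, the reverse of the Cyp2b probe sets. By J03190_at the 2 diets were closer in SD, at 0.57 and 0.75, so the probe sets disagree on the deficient spread. Without sufficient liver 1 the Alas1 difference was -1.35 by J03190_at and -1.31 by J03190_g_at. It was smaller without sufficient liver 2 (-0.82 and -0.74) and without sufficient liver 4 (-0.83 and -0.80).

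Por hardly differed in its mean. By E01524cds_s_at, deficient livers 1 to 4 had levels of 10.42, 10.61, 10.65 and 10.44, against 9.84, 10.86, 10.20 and 11.00 in sufficient livers, so the deficient livers lay inside the range of the sufficient ones. The differences by the 3 Por probe sets were 0.05 (SE 0.23), 0.11 (rc_AI137856_s_at, SE 0.31) and 0.14 (M10068mRNA_s_at, SE 0.22). Their sign was not fixed: without sufficient liver 1 they were -0.16, -0.07 and -0.01. As with Alas1, sufficient livers spread more, with an SD of 0.12 in deficient and 0.55 in sufficient livers by E01524cds_s_at.

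Ephx1 was lower by a small step. By M26125_at, its 1 probe set, deficient livers 1 to 4 had levels of 12.57, 12.42, 12.33 and 12.35, against 12.85, 12.86, 13.21 and 12.79 in sufficient livers. No deficient liver reached the lowest sufficient one. The largest gap between the 2 amounts of 1 diet and number was 0.43, above the range of 0.24 among deficient livers. In deficient liver 4 the 10 µg array read 12.59 and the 2 µg array 12.16. The means were 12.42 ± 0.11 in deficient and 12.93 ± 0.19 in sufficient livers, a difference of -0.51 (SE 0.11), or 1.43-fold lower. It was the 1 member probe set of 12 whose groups did not overlap with deficient livers lower, beside 3.07% of all tested probe sets, and since the contrast chose the members nothing is read from that count. Over the 12 probe sets the median difference was -1.09, beside 0.04 over all 5244.

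The amount of RNA used for labelling, which played no part in choosing the members, allowed a test. Over 6 arrays from 2 µg and 8 from 10 µg with diet as a covariate, the 12 member probe sets differed by -0.24 to 0.04 (2 µg minus 10 µg), and 0 of 12 passed an adjusted p of 0.05 in limma (lowest adjusted p = 0.926). None of the 12 had an unadjusted p under 0.05, beside 6.62% of all tested probe sets, and 0% of all tested probe sets passed. Diet and number pair these arrays, and with that pairing as a block over 12 arrays the differences were -0.19 to 0.24, with 0 members past the adjusted threshold (lowest limma adjusted p = 0.371) and 2 of 12 with an unadjusted p under 0.05. Over all tested probe sets, 0.0381% (2 probe sets) passed in this paired fit and 12.1% had an unadjusted p under 0.05. No difference between the amounts in the diet difference of the members was detectable with the 14 arrays fitted as separate samples, without the pairing. The interaction lay between -0.34 and 0.20, and 0 of 12 passed in limma (0% of all tested probe sets). Of the 12, 0 had an unadjusted p under 0.05, beside 1.83% of all. Its SE for K01721mRNA_s_at was 1.05, beside 0.06 for the amount difference of that probe set in the paired fit. The unpaired SE includes the spread between livers, so this fit could not detect a small interaction. A fit that grouped the arrays of each liver also gave 0 probe sets past the adjusted threshold for the interaction. By K01721mRNA_s_at the diet difference was -2.22 in the 2 µg arrays alone and -2.06 in the 10 µg arrays alone.

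Likeness to Cyp2b2 was measured as Pearson's r with K01721mRNA_s_at over the 8 livers after the mean of each diet was subtracted, as a description with no test. Of the squared deviations of Cyp2b2, 88.6% came from the 4 deficient livers. Over the 5244 tested probe sets r had a median of -0.03 and its 5th and 95th percentiles were -0.67 and 0.65. The other 5 Cyp2b probe sets had r of 0.89 to 0.99 (Spearman's rho 0.93 to 1.00), and without deficient livers 1 and 2, the 2 farthest from the median, r was 0.94 to 0.99 over 6 livers. They share target sequence with the reference, so this likeness was built in.

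Over the 8 livers, r with Cyp2b2 was near 0 for Alas1, Por and Ephx1, but among the deficient livers alone 1 Por probe set kept the order of Cyp2b2. For Alas1 r was 0.07 by J03190_at and -0.09 by J03190_g_at (rho 0.19 and 0.02), for Por it was 0.01, 0.15 and 0.10, and for Ephx1 it was -0.11. These 6 values lay between percentiles 43.6 and 64.6 of all tested probe sets. Without deficient livers 1 and 2 they were, in the same sequence, -0.11 and -0.22 for Alas1, -0.20, -0.35 and -0.22 for Por, and 0.29 for Ephx1. By the Por probe set rc_AI137856_s_at, deficient livers 1 to 4 had levels of 9.84, 10.58, 10.48 and 10.29, against 9.65, 10.60, 9.48 and 11.02 in sufficient livers. In deficient livers this is the order of Cyp2b2, 1 lowest, then 4, 3 and 2, over a range of 0.74 against 3.32 for Cyp2b2. Of all tested probe sets, 3.24% had that order. In sufficient livers the order by this Por probe set differs from that of Cyp2b2, since liver 4 was the highest in Por and the lowest in Cyp2b2. For this probe set the largest gap between the 2 amounts of 1 diet and number was 0.60, close to that range of 0.74. By E01524cds_s_at, deficient livers 1 and 4 (10.42 and 10.44) lay below 2 and 3 (10.61 and 10.65). That range of 0.23 was smaller than its largest gap between amounts, 0.40. In its 2 µg arrays, deficient livers 1, 2 and 4 read 10.21, 10.31 and 10.37, so liver 4 was above liver 2 there. By M10068mRNA_s_at, deficient liver 1 was again the lowest, at 9.90, and liver 2 the next, at 10.21. With 4 livers no correlation is given within a diet. Deficient liver 2, the highest in Cyp2b2 among deficient livers at 12.35, had the second lowest Alas1 level by J03190_at, at 10.18. Deficient liver 4, low in Cyp2b2 at 10.02, had an Alas1 level of 10.96, close to the highest deficient one. Over the 6 probe sets the median r was 0.04, and it lay between -0.22 and 0.26 when any 1 liver was left out. Single probe sets moved more: r of rc_AI137856_s_at was 0.54 without sufficient liver 4 and -0.19 without deficient liver 1, that of J03190_at was -0.39 without deficient liver 1 and 0.31 without deficient liver 2, and that of Ephx1 was 0.36 without deficient liver 1 and -0.47 without sufficient liver 3.

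**Figure D2:**
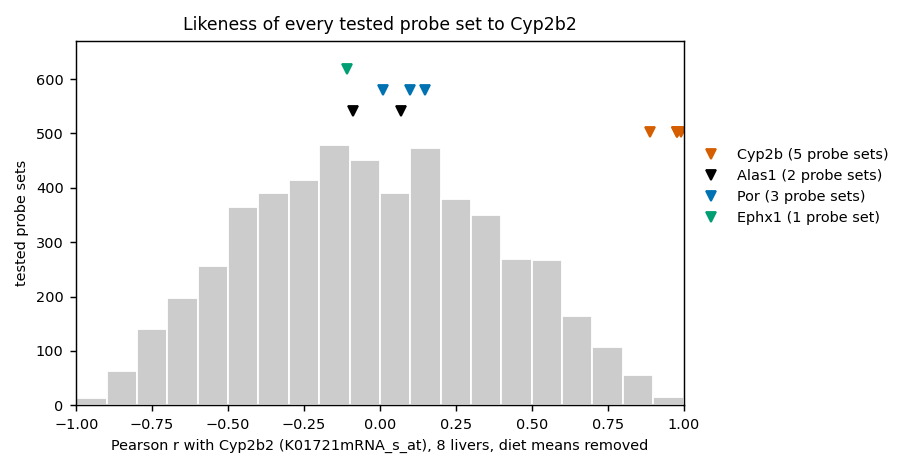
Histogram of Pearson's r with Cyp2b2 (K01721mRNA_s_at) over 8 livers with diet means removed, for the tested probe sets other than the reference, in steps of 0.1. Triangles above the bars mark the other 5 Cyp2b probe sets, at 0.89 to 0.99, and the Alas1, Por and Ephx1 probe sets, at -0.11 to 0.15.

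The genes outside the set with the highest r were Slc3a2, the heavy chain of amino acid exchangers (r = 0.96), Cebpg, a bZIP transcription factor (0.93), Hyou1, a chaperone of the endoplasmic reticulum (0.93), Asns, asparagine synthetase (0.92), and Cdkn2aipnl (0.92), among 3131 genes with 1 probe set each. Slc3a2 had levels of 9.59, 10.71, 10.50 and 10.13 in deficient livers 1 to 4, the order of Cyp2b2, against 10.22, 10.31, 10.11 and 9.97 in sufficient livers. Its mean hardly differed between the diets (0.08), so it shared with Cyp2b2 the spread among livers and not the mean difference. Asns ranged over 0.60 among deficient livers and Hyou1 over 0.60, against 3.32 for Cyp2b2. Without deficient livers 1 and 2 the 5 values of r were 0.76 to 0.97. The order of the 4 deficient livers in Cyp2b2 was that of 170 (3.24%) of the tested probe sets, among them 5 of the 6 Cyp2b probe sets and Por rc_AI137856_s_at.

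The genes with the lowest r ran the other way among deficient livers. They were Fev (-0.93), Slc25a1, the mitochondrial citrate carrier (-0.93), Fdft1, squalene synthase, which commits isoprenoids to cholesterol (-0.93), and Hpd (-0.93) and Fah (-0.92), enzymes of tyrosine breakdown. Fdft1 had levels of 11.63, 10.51, 10.24 and 11.38 in deficient livers 1 to 4, against 10.72, 10.83, 10.56 and 11.10 in sufficient livers. It was high in the 2 deficient livers where Cyp2b2 was low, and low in the other two. Hpd had levels of 14.32, 13.79, 13.68 and 14.04 in deficient livers, against 13.62, 13.56, 13.64 and 13.75 in sufficient livers. Fev ranged over 0.20 among deficient livers, so little that its r rests on very small differences.

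**Figure D3:**
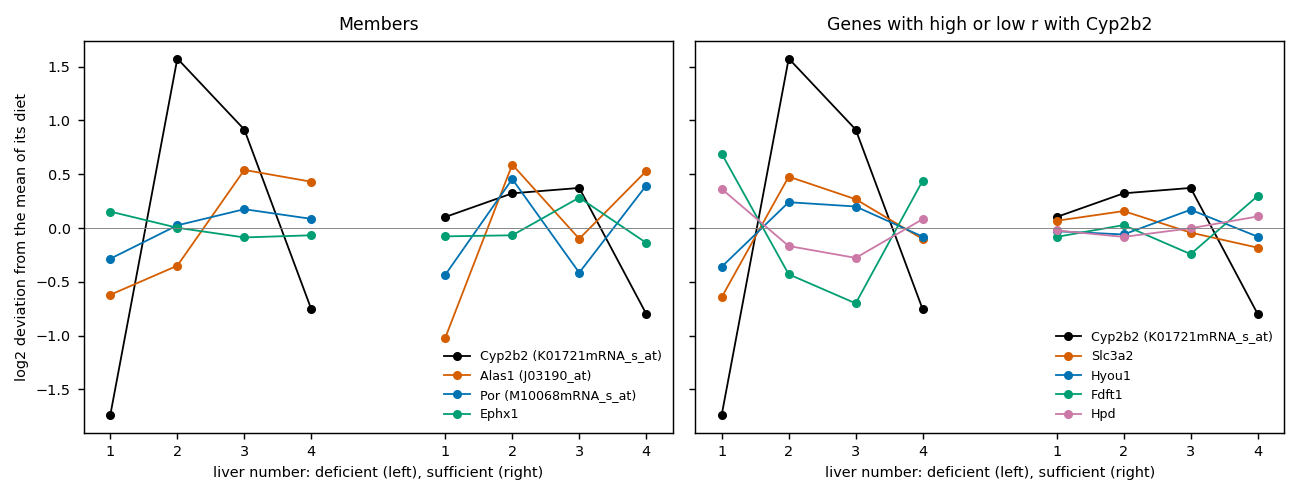
Deviation of each liver from the mean of its diet (log2), with deficient livers 1 to 4 left of sufficient livers 1 to 4, for members (left panel) and for genes with high or low r (right panel). Lines only join the points of 1 gene. Cyp2b2 spans 3.32 among deficient livers, while Alas1 by J03190_at spans 1.16 and Ephx1 0.24.

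Alas1 and Por varied together, a pair set side by side after the values were seen. With Alas1 (J03190_at), the Por probe sets had r of 0.84 (M10068mRNA_s_at), 0.78 (E01524cds_s_at) and 0.69 (rc_AI137856_s_at) over the 8 livers with diet means removed (rho 0.90, 0.81 and 0.64). The 95th percentile of r with Alas1 over all tested probe sets was 0.67. Without deficient liver 1 and sufficient liver 1, the 2 farthest from the median of Alas1, these r were 0.71, 0.56 and 0.47. The r of Cyp2b2 (K01721mRNA_s_at) with Alas1 moved as well, from 0.07 over 8 livers to -0.60 without those 2. By the 6 Cyp2b probe sets it was -0.18 to 0.08 over 8 livers and -0.65 to -0.52 without those 2. Among sufficient livers, 1 and 3 were low and 2 and 4 high in both Alas1 (J03190_at) and Por (M10068mRNA_s_at).

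**Figure D4:**
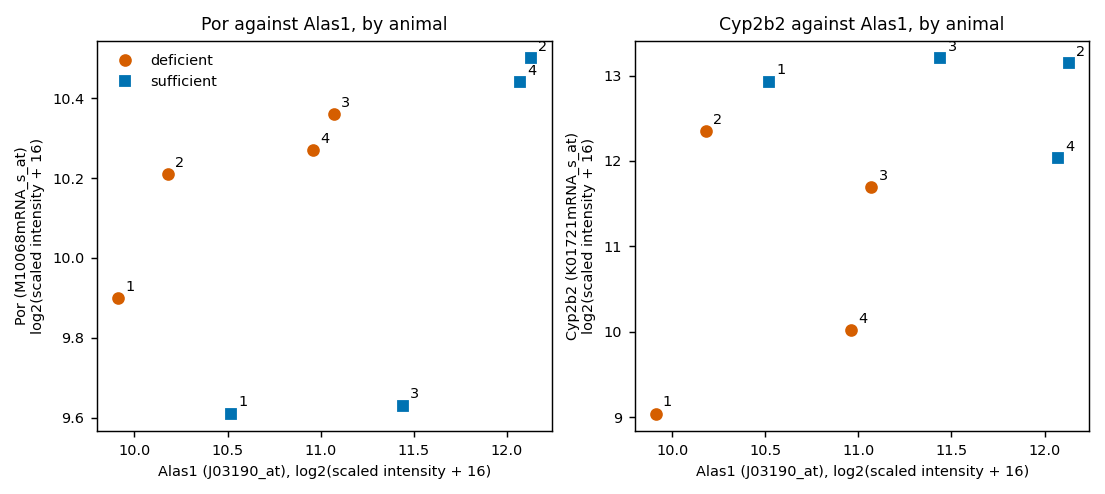
Each point is 1 liver, labelled by its number, with the Alas1 level (J03190_at) on the horizontal axes and the level of Por (M10068mRNA_s_at, left) or Cyp2b2 (K01721mRNA_s_at, right) on the vertical axes, in log2 of scaled intensity plus 16. Over 8 livers with diet means removed, r with Alas1 was 0.84 for Por and 0.07 for Cyp2b2. Without deficient liver 1 and sufficient liver 1 it was 0.71 for Por and -0.60 for Cyp2b2.

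Dbp, a clock-controlled transcription factor whose transcript swings with the time of day, is given beside Alas1, also after its values were seen. Its levels were 9.43, 9.18, 9.42 and 9.72 in deficient livers 1 to 4, against 4.69, 9.37, 7.68 and 6.58 in sufficient livers, so sufficient liver 1, the lowest in Alas1 among sufficient livers, was also the lowest in Dbp. Sufficient liver 4 did not follow: it was second highest in Alas1 (12.07 by J03190_at) and second lowest in Dbp (6.58). The r of Dbp was 0.66 with J03190_at, 0.81 with J03190_g_at and 0.05 with Cyp2b2. With Por it was 0.58 (E01524cds_s_at), 0.27 (rc_AI137856_s_at) and 0.53 (M10068mRNA_s_at). The 0.66 lay at percentile 94.2 of all tested probe sets and was 0.28 without deficient liver 1 and sufficient liver 1, so it depends on which livers are included. Of these 2 livers, the deficient one lay near its diet's mean of Dbp (9.43 against 9.44). The sufficient one lay far below its diet's mean (4.69 against 7.08). Its diet difference was 2.36 (SE 0.74) and did not pass (limma adjusted p = 0.157), nor did that of its other probe set, at 1.91 (SE 0.45, limma adjusted p = 0.0633). The time of sampling is not given in the sources used here, and the part of the clock in the Alas1 and Por values was not tested.

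Most genes that share regulators or functions with the set did not pass the diet test, as was so over the whole array. Of 33 tested genes listed as targets of xenobiotic receptors, 1 rose, 1 fell and 31 did not pass (median difference 0.13), beside 0.829% of 3135 genes that rose and 1.05% that fell over the array. In this list 10 of the 33 had an unadjusted p under 0.05 in limma, beside 14.6% of the 3135 genes. Sult2a6, a bile acid sulfotransferase, rose by 1.26 (SE 0.12, limma adjusted p = 2.0e-04), and Cyp2c7, which oxidizes retinoic acid, fell by 7.32 (SE 0.52, limma adjusted p = 3.3e-05). Its deficient levels, 4.23 to 5.50, lay near the 4 that an intensity of 0 gives, so the size of this fall depends on the pseudocount: the difference was -8.91 with a pseudocount of 1 and -5.82 with 64. The Cyp3a genes, which share inducers with Cyp2b, did not pass: Cyp3a23-3a1 averaged 13.55 ± 0.43 in deficient and 13.33 ± 0.31 in sufficient livers, and Cyp3a2 13.16 ± 0.11 against 13.23 ± 0.19. Cyp2a1 had a difference of 0.54 (SE 0.18), Abcc2, the canalicular exporter of conjugates, 0.18 (SE 0.20), and Ugt2b1, a glucuronosyltransferase, 0.30 (SE 0.18), none of which passed in limma (adjusted p = 0.197, 0.776 and 0.519). Cyp2a1 did pass with the 14 arrays fitted singly and each liver as a random block, at 0.58 (SE 0.15, limma adjusted p = 0.0303), and not in the other 16 alternatives, where its adjusted p was 0.175 to 0.399. Within the Cyp2b family, named here after their values were seen, Cyp2b3 differed by -0.15 (SE 0.10, adjusted p = 0.579) by its brightest probe set, and by 0.74 (SE 1.07) and -0.16 (SE 0.22) by the other two, and Cyp2b15, by the probe set of that gene alone, by -0.50 (SE 0.16, adjusted p = 0.161).

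Among 11 tested genes of heme synthesis and breakdown, 1 fell and 10 did not pass (median difference 0.06). The gene that fell was Alas2, the erythroid counterpart of Alas1, with a mean level of 7.48 ± 0.32 in deficient livers, against 8.71 ± 0.20 in sufficient livers (a difference of -1.23 with an SE of 0.18, limma adjusted p = 0.00398). Erythroid markers moved with it: 4 of the 5 tested, Alas2 included, fell, and their summed scaled intensity was 3768 to 6429 in deficient and 12194 to 15126 in sufficient livers. In liver tissue, fewer erythroid cells and less RNA per cell cannot be told apart. The step after Alas1, Alad, differed by -0.14 (SE 0.11), Urod, a later enzyme, by 0.06 (SE 0.12), and Hmox1, the inducible heme oxygenase, by 0.24 (SE 0.16), at limma adjusted p of 0.634, 0.893 and 0.566.

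Of 10 tested partners in microsomal electron transfer and oxidation, 0 passed in limma and 0 had an unadjusted p under 0.05 (median difference 0.04). Cyb5a, cytochrome b5, a second electron donor to P450s, differed by 0.07 (SE 0.12), its reductase Cyb5r3 by -0.14 (SE 0.13, with 0.33 and an SE of 0.44 by the 1 of its other 4 probe sets that lay above 0) and the heme-binding Pgrmc1 by -0.19 (SE 0.10). Cyb5r3 had an r of -0.88 with Cyp2b2, from levels of 10.68, 10.28, 10.20 and 10.58 in deficient livers, against 10.66, 10.48, 10.57 and 10.59 in sufficient livers. Of the other list genes named by rule, Alad (-0.80), Alas2 (0.75), Sult2a6 (0.75) and Abcc2 (0.72) also lay outside the 5th and 95th percentiles of r. The rest lay between -0.34 and 0.49. Without deficient livers 1 and 2, r was -0.78 for Cyb5r3 and -0.68 for Alad. It was then 0.64 for Alas2, -0.01 for Sult2a6 and 0.69 for Abcc2. Of 21 tested nuclear receptors and other regulators of the Cyp2b genes, 0 passed in limma and 6 had an unadjusted p under 0.05 (median difference 0.10), a threshold that 14.6% of the 3135 genes met by diet. Rxra, the retinoid X receptor alpha, averaged 8.86 ± 0.14 in deficient and 8.86 ± 0.08 in sufficient livers (SE of the difference 0.12). Hnf4a, a hepatocyte nuclear receptor, differed by 0.33 (SE 0.12, adjusted p = 0.240; 0.47 and 0.04 by its other probe sets) and Nr3c1, the glucocorticoid receptor, by -0.02 (SE 0.15, adjusted p = 0.971). Nr1i3 and Nr1i2 were not analysed here.

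**Figure D5:**
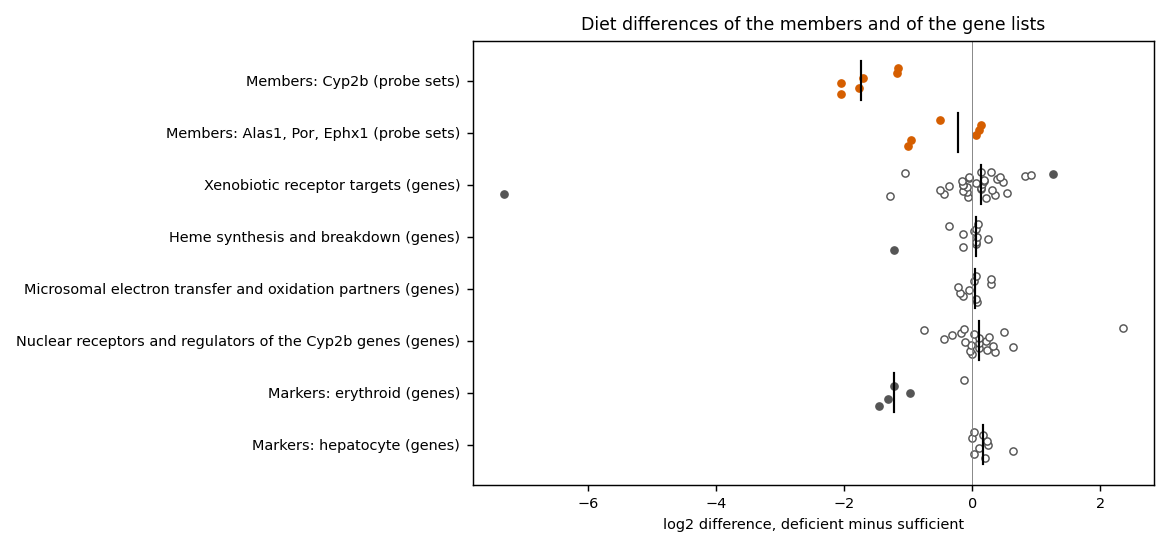
Log2 difference, deficient minus sufficient, on the horizontal axis for the member probe sets (orange, no test) and for the genes of the lists (grey, filled where the gene passed in limma). Black bars are medians, at 0.13 for xenobiotic receptor targets, 0.06 for heme genes and -1.23 for erythroid markers.

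Over the 4 lists together, 3 of 74 genes passed, beside 0.829% of 3135 genes that rose and 1.05% that fell over the array. The count was 5 without deficient liver 3, 5 without sufficient liver 2 and 6 without sufficient liver 4. Hepatocyte markers were bright in every liver, with a summed scaled intensity of 231406 to 261174 in deficient and 193046 to 243803 in sufficient livers, and 0 of 9 passed in limma, while 2 had an unadjusted p under 0.05. Of the markers of other cells, 1 of 4 macrophage genes rose (Lgals3), 1 of 5 stellate genes rose (Vim), 1 of 3 endothelial genes fell (Lyve1) and 0 of 4 cholangiocyte genes passed, with 2 at an unadjusted p under 0.05, which 14.6% of all genes reached. The summed macrophage signal was 6420 to 8667 in deficient and 5076 to 5557 in sufficient livers, and its part in the member values was not tested.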

How the data were processed

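The authors deposited 1 table with an intensity per probe set and array, on a linear scale. For the program and normalization behind it, nothing is stated in the labels or headers. Per the labels, targets were made from about 10 µg or 2 µg of total RNA. The deposited arrays had trimmed means of 1001.9 to 1002.1 (2% off each end) and medians of 175.1 to 230.9. The 14 columns matched the labels, and 0 were left out.

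The 59 control probe sets were dropped, arrays scaled to a trimmed mean of 500, and log2 taken after adding 16. Probe sets under the 40th percentile of the mean (6.196) were left out. The amount shift was removed per probe set before arrays of 1 diet and number were averaged. Fits used limma 3.58.1 (R 4.3.3) with a trend, two-sided tests and Benjamini-Hochberg adjustment over all tested probe sets, and were tested on simulated data. The platform annotation gave 7006 probe sets 1 symbol, 308 several and 1426 none listed, and the brightest probe set stood for a list gene. The number of livers and the spread between them limit the precision.

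Arrays of 1 diet and number correlated at 0.202 to 0.351 across amounts (6 pairs, deviations from group means), so they pair. Equal numbers across diets correlated at -0.0763 to 0.0672 and do not. The members, lists and rules for named genes were chosen with earlier results of these data known. The rule named every member probe set, up to 4 genes of each list that passed, certain regulators and partners, and the 5 genes with the highest and the lowest r. Alternatives were other scalings, pseudocounts of 1 and 64, no filter, each amount alone, blocks, and leaving out each liver. Promoter windows came from RefSeq (GRCr8) and were aligned with Biopython 1.88.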

Additional observations from a re-analysis of the deposited data

Results flagged for a closer look

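In 4 of 58 groups of 4 livers, 1 liver stood apart from the other three by more than Dixon's criterion allows, where chance flags about 1 in 20. By M13234cds_f_at (Cyp2b15 and Cyp2b2) sufficient liver 4 was low, at 11.53 against 12.56 to 12.67 in the other sufficient livers. Ephx1 was high in sufficient liver 3, at 13.21 against 12.79 to 12.86. Cyp2a1 was high in deficient liver 4, at 13.25 against 12.61 to 12.64. Cyp3a23-3a1 was high in sufficient liver 1, at 13.79 against 13.13 to 13.23.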

How the results depend on the processing

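The 9 probe sets of Cyp2b, Alas1 and Ephx1 were lower in deficient livers under each of the 17 alternatives, from -2.58 to -1.47 for K01721mRNA_s_at, -1.35 to -0.80 for J03190_at and -0.58 to -0.42 for Ephx1. The Por differences changed sign in 4, 3 and 2 of 17. Over all probe sets, 90 passed by diet. This count was 250 with 14 arrays and diet and number as a random replicate block, 33 in the 2 µg arrays alone, 78 with the number as a replicate block, and 52 to 95 without 1 liver, with 52 without deficient liver 4 and 59 without sufficient liver 3. List genes that passed numbered 10 under the random block and 3 to 6 without 1 liver. By amount, 0 probe sets passed in limma, 2 with diet and number as a replicate block and 0 to 2 without 1 liver. With that block the amount differences of K01721mRNA_s_at and M11251cds_f_at turned to 0.05 and 0.03, and with quantile normalization that of Ephx1 to -0.03. Without 1 liver, amount differences that turned were -0.13 to 0.08 (J03190_g_at), -0.10 to 0.18 (M13234cds_f_at), -0.04 to 0.08 (Ephx1) and -0.16 to 0.04 (rc_AI137856_s_at). Diet differences near 0 turned too. Rxra was -0.07 in the 10 µg arrays and with median scaling, -0.03 with quantile normalization and -0.05 to 0.05 without 1 liver. Nr3c1 was 0.06 in the 2 µg arrays, 0.00 under the random block and -0.11 to 0.08 without 1 liver. Cyb5a was -0.08 in the 2 µg arrays, 0.00 with median scaling and 0.00 to 0.17 without 1 liver. Urod was 0.00 with median scaling and -0.01 to 0.14 without 1 liver, and Cyp3a2 -0.15 to 0.01 without 1 liver. The cause of these changes was not tested.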

Other observations

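Several list genes that did not pass are given as values, chosen after they were seen. Akr7a3, an aldehyde reductase, averaged 10.07 ± 0.30 in deficient and 11.13 ± 0.51 in sufficient livers (SD, n = 4 each), with groups that did not overlap, at a limma adjusted p of 0.0502. The mean level of Cyp3a9 was 6.72 ± 1.01 in deficient livers, against 8.01 ± 0.34 in sufficient livers (a difference of -1.29 with an SE of 0.41, limma adjusted p = 0.167). The sulfotransferases Sult2a1 and Sult2a2, relatives of Sult2a6, differed by 0.83 (SE 0.21) and 0.92 (SE 0.22), at limma adjusted p of 0.0863 and 0.0642 by their brightest probe sets. The other probe sets of Sult2a1 differed by 0.77 and 0.61, and those of Sult2a2 by 0.77 and -0.33, so the Sult2a2 probe sets disagree in sign. Probe sets of this family can bind transcripts of near relatives.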
